A study of Homo sapiens with 16 samples.

Results

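The 9 genes described here are the interferon regulatory factors IRF1, IRF2, IRF3, IRF5, IRF7 and IRF9 and the signal transducers STAT2, STAT3 and STAT6. The genes were listed by symbol, with earlier results of these data known. They were 9 of the 20626 genes counted in U343 and, because IRF3 was analysed in U343 only, 8 of the 20314 genes counted in U251. U251 and U343 are established human glioblastoma cell lines. Cells of either line were transfected in dishes, with a lipid reagent and at 25 nM, with a synthetic mimic of miR-137 or with a control mimic, and RNA was taken after 48 hours. RNASeq measured total RNA, and RIPSeq measured RNA recovered with antibodies to the poly(A) binding protein (PABP), both after removal of ribosomal RNA. Each line and assay had 2 control and 2 miR-137 libraries, 16 libraries in 8 groups, with 10156675 to 18224061 counted reads per library in U251 RNASeq, 22359794 to 30731476 in U251 RIPSeq, 37952273 to 45134766 in U343 RNASeq and 37736206 to 45055184 in U343 RIPSeq. The labels do not say that replicates came from separate cultures, and the p-values therefore measure only the spread between these libraries. U251 and U343 libraries were made with different cDNA kits, so line and kit cannot be told apart.

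Interferon regulatory factors and STAT proteins carry signals of virus sensing and of cytokine receptors to the nucleus. When a cell detects double-stranded RNA, kinases activate IRF3 and IRF7, which switch on type I and type III interferon genes. Secreted interferon then acts through its receptor and JAK kinases on STAT proteins, and STAT2 joins IRF9 in the complex ISGF3, which binds the interferon-stimulated response element (ISRE) of antiviral genes. IRF1 is an activator and IRF2 its relative that can occupy the same sites and often represses. STAT3 is the main STAT of the interleukin-6 family and STAT6 that of interleukin-4, and STAT dimers bind the gamma-activated site (GAS).

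The mature miRNA is shown because the mimic was built on it. The mimic's own chemistry is not given in the sources used here. The RefSeq sequence of the natural miRNA (GRCh38.p14, chr1:98046091-98046113, minus strand) is printed 5′ to 3′ with the seed, bases 2 to 8, in capitals.
hsa-miR-137-3p: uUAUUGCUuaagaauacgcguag

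Promoter windows from 250 bases before to 50 bases after an annotated start were given by RefSeq for 6 of the 9 genes, in 9 windows. IRF2, IRF3 and IRF7 had none in the table. Both strands were searched for the ISRE letters GAAANNGAAA and the GAS letters TTCNNNGAA, which do not overlap as patterns. The GAS letters stood in the windows of IRF1 and IRF9 and in 7.66% of all 35116 windows. The ISRE letters stood in none of the windows of these genes and in 3.57% of all windows. The windows of IRF1 and IRF9, with the match in capitals, and that of STAT2, which had no match, are shown because these 3 genes moved in several experiments.
IRF1, chr5:132490724-132491023, minus strand: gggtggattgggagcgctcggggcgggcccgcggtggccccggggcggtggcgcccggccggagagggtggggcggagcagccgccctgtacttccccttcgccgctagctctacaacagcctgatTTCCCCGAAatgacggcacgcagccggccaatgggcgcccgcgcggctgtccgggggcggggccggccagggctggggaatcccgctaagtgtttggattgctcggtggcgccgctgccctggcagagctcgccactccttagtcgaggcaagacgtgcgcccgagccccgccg
IRF9, chr14:24161015-24161314, plus strand: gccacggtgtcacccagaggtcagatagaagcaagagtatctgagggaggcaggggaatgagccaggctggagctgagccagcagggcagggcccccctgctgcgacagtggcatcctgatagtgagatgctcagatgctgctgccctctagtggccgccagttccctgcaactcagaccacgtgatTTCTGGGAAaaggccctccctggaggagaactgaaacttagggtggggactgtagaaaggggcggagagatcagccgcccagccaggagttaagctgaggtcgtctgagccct
STAT2, chr12:56360058-56360357, minus strand: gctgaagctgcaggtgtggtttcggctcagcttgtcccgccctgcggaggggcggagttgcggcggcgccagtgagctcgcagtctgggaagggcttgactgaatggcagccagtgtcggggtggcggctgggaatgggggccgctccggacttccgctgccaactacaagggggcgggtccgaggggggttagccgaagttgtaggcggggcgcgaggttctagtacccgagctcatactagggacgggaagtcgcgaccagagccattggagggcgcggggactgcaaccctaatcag
The first base of the match lay at -124 from the start in IRF1 (TTCCCCGAA) and at -63 in IRF9 (TTCTGGGAA). A match is a description of letters and says nothing of binding in these cells.

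Certain libraries stood apart, and results that rest on them are given with and without them. In U343 RNASeq, the library labelled miR-137 replicate 1 held 219 CPM (reads scaled to the TMM-adjusted library total) over 17 genes induced through ISGF3, close to the 287 and 291 CPM of its controls, while replicate 2 held 14871 CPM. The same library was not at control level for every gene. NES, a neural progenitor filament, was at 425 CPM against 367 CPM in replicate 2 and 128 and 136.6 CPM in the controls. Summed over 7 glial and glioma markers, NES among them, replicate 1 held 11775 CPM, between the 11111 and 11904 CPM of its controls. Replicate 2 held 13487 CPM. In U251 RIPSeq, the control libraries differed from each other by a median of 0.68 on the log2 scale over the genes tested, against 0.07 between the miR-137 libraries. VIM, a mesenchymal and glial filament, was at 3362 to 9847 CPM and GFAP, the astrocytic filament, was at 3187 to 7402 CPM in U343 but at 3.28 to 32.85 CPM in U251. These markers moved with miR-137 in U251 RNASeq, where 5 of 6 tested of 7 glial and glioma markers were lower and 1 higher (median log2 fold change -1.22). Over all genes tested there, 29.0% were lower and 28.7% higher. GFAP went from 31.2 and 32.8 to 3.79 and 3.28 CPM there and VIM from 7671 and 8718 to 3362 and 3826 CPM. The 11 leukocyte, endothelial and epithelial markers with counts summed to 109 to 222 CPM per library. PTPRC was at 0.03 to 0.72 CPM and EPCAM at 0.02 to 0.19 CPM. In U251 RNASeq, 3 of 4 tested were higher with miR-137 and 1 lower (1 and 1 in DESeq2), beside the same shares of all genes. CD68 went from 7.60 and 10.5 to 86.9 and 79.3 CPM and KRT18 from 112 and 126 to 71.9 and 78.8 CPM. The part of these markers in the results was not tested.

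**Figure D1:**
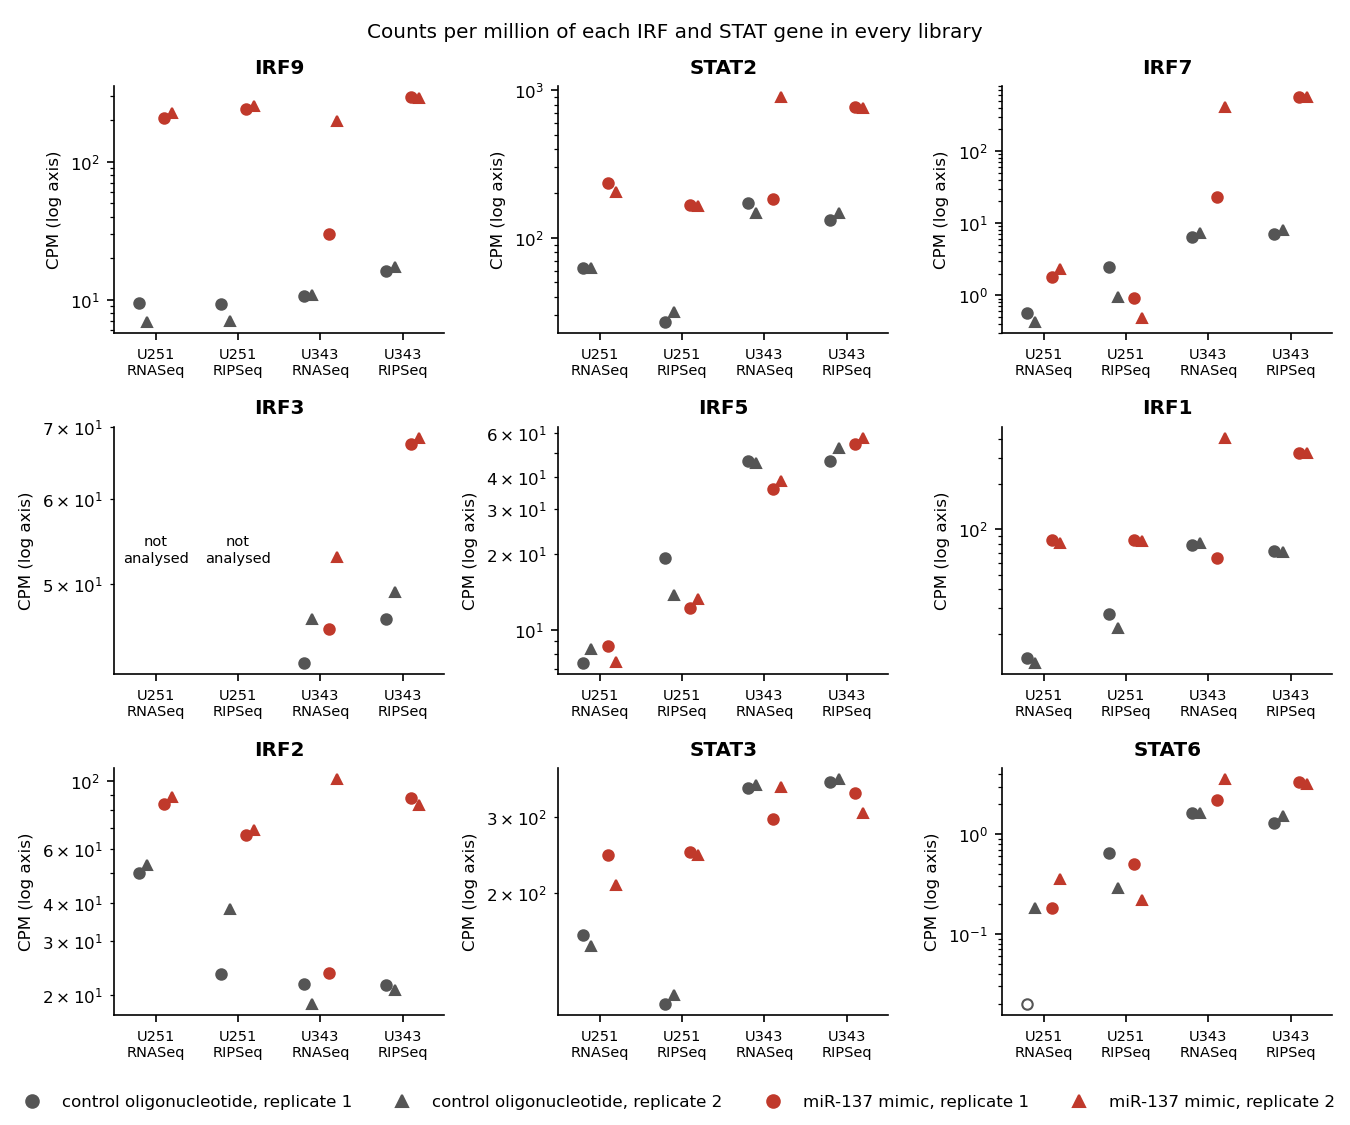
CPM (log axis) of each of the 9 genes in every library, by cell line and assay, with control libraries in grey and miR-137 libraries in red. IRF9 is higher in both miR-137 libraries than in both controls of each experiment, IRF7 reached 559 CPM in U343 and at most 2.49 CPM in U251, and the U343 RNASeq miR-137 libraries are far apart for 5 genes (IRF9, STAT2, IRF7, IRF1 and IRF2). The open circle of STAT6 marks a library with 0 reads, drawn at 0.02 CPM.

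With miR-137, the edgeR quasi-likelihood test at an adjusted p of 0.05 found 6 of 7 genes higher in U251 RNASeq and 2 of 8 in U251 RIPSeq. It found 0 of 9 higher in U343 RNASeq and 7 of 9 in U343 RIPSeq, and none lower in any of the 4. The 6 genes of U251 RNASeq include IRF7, which passed the read filter there only through its miR-137 libraries. In bulk RNA, a change in the share of expressing cells and a change in RNA per cell cannot be told apart. Over all genes tested, 28.7% were higher and 29.0% lower in U251 RNASeq, 0.944% and 0.263% in U251 RIPSeq, 8.31% and 11.7% in U343 RNASeq, and 28.5% and 27.8% in U343 RIPSeq. In U251 RNASeq the split over all genes was 3749 higher and 3780 lower, and 4588 and 3001 with upper-quartile scaling. In U251 RIPSeq it was 133 and 37, 116 and 41 with upper-quartile scaling, and 589 and 534 in DESeq2, which changes the test as well as the scaling. The genes called in every experiment but U343 RNASeq were IRF9 and STAT2. The count of 0 in U343 RNASeq stood beside 4 genes at an unadjusted p under 0.05 and 2 genes, IRF7 and IRF9, in DESeq2. Without miR-137 replicate 1 of U343 RNASeq, the log2 fold changes ran from -0.26 (IRF5) to 5.90 (IRF7). Without replicate 2 they ran from -0.36 (IRF5) to 1.75 (IRF7). Without control replicate 1 or 2 of U343 RNASeq, 0 of all genes were called there (2776 and 2675 at an unadjusted p under 0.05), so no call with all libraries in that experiment outlasts the loss of a control. The U251 RIPSeq count rose without control replicate 1 or 2, as did calls over all genes, and fell without either miR-137 library. Its movement is therefore not read as a result about these genes. The IRF5 log2 fold change there was -0.11 without control replicate 1 and -0.51 without control replicate 2. Fits without a control library take the spread from the remaining groups.

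The rule of the study's methods, mirrored for rises (an odds ratio over 2 and an adjusted Fisher's exact p under 0.001 in each of the 4 possible pairings of control with miR-137 libraries), compares the reads of libraries and not their spread. It called IRF1, STAT2 and IRF9 in U251 RNASeq, where it called 6.14% of all genes higher. Over all genes there it called 1248 higher and 448 lower. With library totals scaled by TMM factors these numbers were 789 and 796, and the same members were called. In U251 RIPSeq it called IRF1, STAT2, IRF9 and STAT3, beside 3.47% of all genes. In U343 RNASeq it called IRF7 and IRF9, beside 1.51%, and in U343 RIPSeq IRF7, IRF9, STAT2, STAT6, IRF2 and IRF1, beside 4.83%.

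**Figure D2:**
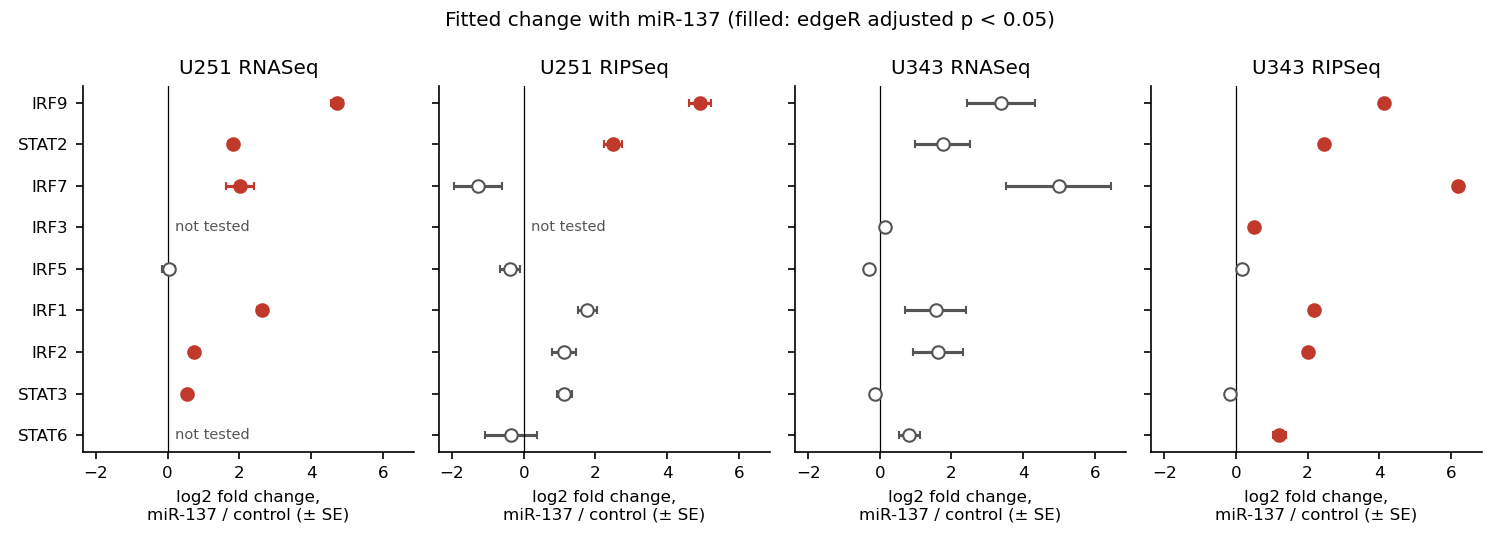
Fitted log2 fold change of each gene with miR-137 against control, with its SE, in the 4 experiments, where filled red points passed the edgeR test at an adjusted p of 0.05 and open points did not. The points run from -1.28 (IRF7 in U251 RIPSeq) to 6.21 (IRF7 in U343 RIPSeq), and the widest error bars are those of U343 RNASeq, where the miR-137 libraries differ.

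IRF9, the DNA-contacting subunit of ISGF3, lies on chromosome 14 (hg18, 23700262 to 23705614, plus strand). In U251 RNASeq it was at 9.39 and 6.91 CPM in the control libraries and at 205 and 224 CPM with miR-137, a 26.4-fold rise (log2 4.72 ± 0.17 SE, edgeR adjusted p = 1.2e-10). In U251 RIPSeq it was at 9.35 and 6.98 CPM in control and 242 and 252 CPM with miR-137, a 30.2-fold rise (log2 4.92 ± 0.30, adjusted p = 0.0192). Both miR-137 libraries stood far above both controls. In U343 RIPSeq IRF9 went from 16.0 and 17.2 CPM to 293 and 290 CPM, 17.5-fold (log2 4.13 ± 0.10, adjusted p = 1.7e-07). In U343 RNASeq the controls were at 10.7 and 10.8 CPM and the miR-137 libraries at 29.7 and 196 CPM (log2 3.39 ± 0.95, adjusted p = 0.0750). The groups did not overlap there either, and the miR-137 libraries lay on very different levels. Taken alone against the controls, replicate 1 gave a log2 fold change of 1.46 (adjusted p = 3.9e-04) and replicate 2 one of 4.18 (adjusted p = 3.2e-06).

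STAT2, the STAT of ISGF3 that carries its activation domain, lies on chromosome 12 (hg18, 55021649 to 55040176, minus strand). It went from 62.3 and 62.3 CPM to 234 and 204 CPM in U251 RNASeq, 3.52-fold (log2 1.81 ± 0.13, edgeR adjusted p = 1.4e-07). PABP-bound STAT2 RNA of U251 went from 27.1 and 31.4 CPM to 167 and 164 CPM, 5.66-fold (log2 2.50 ± 0.25, adjusted p = 0.0343). That call was lost without the low-count filter (adjusted p = 0.0755) and without either miR-137 library (0.187 and 0.197), at log2 fold changes of 2.53 to 2.57. PABP-bound RNA of U343 went from 131 and 147 CPM to 769 and 759 CPM, 5.49-fold (log2 2.46 ± 0.11, adjusted p = 3.2e-06). U343 total RNA held it at 173 and 147 CPM in control, 183 CPM in miR-137 replicate 1 and 896 CPM in replicate 2 (log2 1.75 ± 0.76, adjusted p = 0.177). Replicate 1 alone was 0.19 above the controls on the log2 scale (adjusted p = 0.264), and replicate 2 alone 2.48 (adjusted p = 7.3e-05).

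The ratio of IRF9 reads to STAT2 reads in a library shows how far these partners moved apart, since gene length cancels when the ratio is compared between libraries. It was 0.151 and 0.111 in the U251 RNASeq controls and 0.877 and 1.10 with miR-137. U251 RIPSeq had 0.345 and 0.223 in control and 1.45 and 1.54 with miR-137. U343 RIPSeq had 0.122 and 0.117, then 0.380 and 0.382. U343 RNASeq had 0.0618 and 0.0735 in control and 0.162 and 0.219 with miR-137. IRF9 gained on STAT2 in each miR-137 library, including the U343 library in which STAT2 stayed near its controls. With 2 libraries against 2, no permutation test of such a ratio can go below p = 0.333, so these are descriptions.

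**Figure D3:**
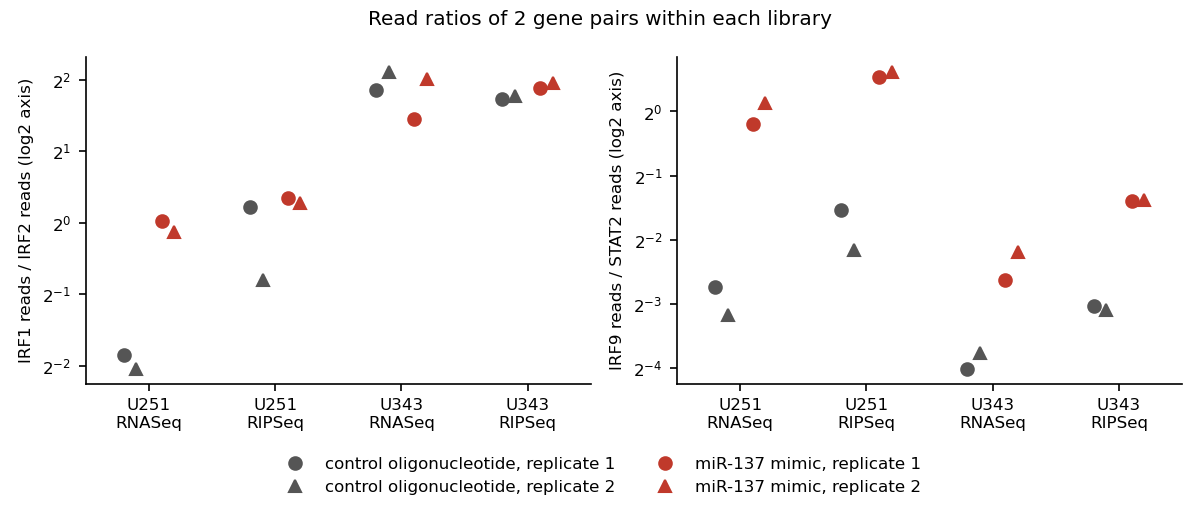
Ratio of IRF1 to IRF2 reads (left) and of IRF9 to STAT2 reads (right) in each library, on log2 axes, with control libraries in grey and miR-137 libraries in red. The IRF9 to STAT2 ratio is higher in each miR-137 library than in both controls of its experiment, and the IRF1 to IRF2 ratio climbs clearly in U251 RNASeq (from 0.243 and 0.278 to 0.913 and 1.01) while staying between 2.73 and 4.31 in U343.

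IRF7, which with IRF3 drives interferon genes after virus sensing, lies on chromosome 11 (hg18, 602555 to 605999, minus strand). Of the 8 genes with values in both lines, it showed the largest difference of the change between them in RIPSeq. In U343 RIPSeq it went from 7.12 and 7.99 CPM to 559 and 559 CPM, 74.0-fold (log2 6.21 ± 0.12, edgeR adjusted p = 1.4e-07). In U343 RNASeq it was at 6.52 and 7.31 CPM in control and 23.2 and 416 CPM with miR-137 (log2 4.99 ± 1.46, adjusted p = 0.0835). Each of those miR-137 libraries alone differed from the controls, replicate 1 by 1.75 (adjusted p = 4.2e-04) and replicate 2 by 5.90 (adjusted p = 2.9e-06) on the log2 scale. In U251 few reads fell on IRF7. U251 RNASeq had 9 and 7 reads in control and 20 and 26 with miR-137, a 4.06-fold rise (log2 2.02 ± 0.40, adjusted p = 7.2e-04) that ended at 1.81 and 2.31 CPM. IRF7 passed the read filter there only through its miR-137 libraries and could hardly have been called lower. U251 RIPSeq had 58 and 26 reads in control and 24 and 13 with miR-137, or 2.49, 0.931, 0.919 and 0.478 CPM (log2 -1.28 ± 0.66, adjusted p = 0.368). Without control replicate 2 that value was -1.74 (adjusted p = 6.0e-08), and without control replicate 1 it was -0.42 (adjusted p = 0.388).

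The difference of the IRF7 change between the lines was 7.54 ± 0.66 on the log2 scale in RIPSeq (edgeR interaction, adjusted p = 0.00980), higher in U343. It was 2.95 ± 2.51 in RNASeq (adjusted p = 0.426). Without U343 RNASeq miR-137 replicate 1 the RNASeq difference was 3.87 (adjusted p = 4.3e-05), and without replicate 2 it was -0.29 (adjusted p = 0.618). STAT3 was the other gene with a difference between the lines, in both assays, and these were 1 of 8 genes called in RNASeq and 2 of 8 in RIPSeq, beside 25.2% and 3.28% of all genes tested. These counts moved with single libraries. In RNASeq, more of these genes were called without U343 miR-137 replicate 1 or 2, STAT3 among them, as were more of all genes tested. The STAT3 call there held without U251 miR-137 replicate 2, and 0 genes were called without U251 control replicate 1, U251 control replicate 2, U251 miR-137 replicate 1, U343 control replicate 1 or U343 control replicate 2. In RIPSeq, more were called without U251 control replicate 1 or 2, IRF7 and STAT3 among them, as were more of all genes tested. Without any one of the other libraries both calls were lost.

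IRF3 is the factor that cells keep ready and activate by phosphorylation. It lies on chromosome 19 (hg18, 54854641 to 54860944, minus strand) and overlaps BCL2L12 on the other strand by 734 bases. Use of strand in counting is not stated, so reads of this overlap cannot be assigned to 1 gene with certainty. In U343 RIPSeq IRF3 went from 46.3 and 49.1 CPM to 67.5 and 68.3 CPM, 1.42-fold (log2 0.51 ± 0.08, edgeR adjusted p = 0.00108). BCL2L12 went the other way there, from 1206 and 1169 reads to 686 and 727. In U343 RNASeq IRF3 was at 42.2 and 46.4 CPM in control and 45.4 and 52.9 CPM with miR-137 (log2 0.15 ± 0.12, adjusted p = 0.425), and the groups overlapped.

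IRF5, which acts downstream of Toll-like receptors mainly in myeloid cells, lies on chromosome 7 (hg18, 128365230 to 128377324, plus strand) and has 1 annotated pseudogene with which it could share reads. It passed the test in none of the 4 experiments, and with the replicate number as a block it did in U343 RIPSeq (log2 0.17, edgeR adjusted p = 0.0475). In U251 RNASeq it was at 7.41 and 8.38 CPM in control and 8.66 and 7.46 CPM with miR-137 (log2 0.03 ± 0.19, edgeR adjusted p = 0.909), in overlapping groups. In U251 RIPSeq the values were 19.2 and 13.7, then 12.2 and 13.2 CPM (log2 -0.37 ± 0.28, adjusted p = 0.525). In U343 RNASeq they were 46.3 and 45.5, then 35.8 and 38.5 CPM (log2 -0.30 ± 0.09, adjusted p = 0.0922). This was the one gene of the 9 on which the 2 U343 RNASeq miR-137 libraries both lay below both controls. In U343 RIPSeq the values were 46.3 and 52.2, then 53.9 and 57.0 CPM (log2 0.17 ± 0.09, adjusted p = 0.143).

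IRF1, which is induced by interferon and by inflammatory signals, lies on chromosome 5 (hg18, 131845201 to 131854364, minus strand). It went from 13.9 and 12.9 CPM to 85.4 and 81.0 CPM in U251 RNASeq, 6.21-fold (log2 2.64 ± 0.14, edgeR adjusted p = 6.2e-09). IRF1 in U251 RIPSeq was at 27.2 and 22.0 CPM in control and 84.6 and 83.7 CPM with miR-137 (log2 1.78 ± 0.26, adjusted p = 0.0654). DESeq2 called it there (adjusted p = 3.7e-04), as did edgeR with the replicate number as a block (0.0211), and the groups did not overlap. IRF1 in U343 RIPSeq went from 71.5 and 70.7 CPM to 323 and 325 CPM, 4.56-fold (log2 2.19 ± 0.09, adjusted p = 2.0e-06). IRF1 in U343 RNASeq was at 78.7 and 80.8 CPM in control, 64.5 CPM in miR-137 replicate 1 and 405 CPM in replicate 2 (log2 1.56 ± 0.86, adjusted p = 0.261). Replicate 1 alone was below the controls (log2 -0.31, adjusted p = 0.0338) and replicate 2 alone above them (log2 2.34, adjusted p = 2.4e-05).

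IRF2 lies on chromosome 4 (hg18, 185545870 to 185632720, minus strand). It went from 49.9 and 53.2 CPM to 84.2 and 88.8 CPM in U251 RNASeq, 1.68-fold (log2 0.75 ± 0.13, edgeR adjusted p = 2.3e-04). In U251 RIPSeq the controls were at 23.4 and 38.3 CPM and the miR-137 libraries at 66.5 and 68.9 CPM (log2 1.13 ± 0.33, adjusted p = 0.178). IRF2 in U343 RIPSeq went from 21.6 and 20.8 CPM to 87.8 and 83.5 CPM, 4.05-fold (log2 2.02 ± 0.08, adjusted p = 2.3e-06). IRF2 in U343 RNASeq was at 21.7 and 18.7 CPM in control, 23.6 CPM in miR-137 replicate 1 and 101 CPM in replicate 2 (log2 1.62 ± 0.70, adjusted p = 0.175). With miR-137, U251 and U343 held similar levels of IRF2 apart from that library, although U251 began higher.

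IRF1 and IRF2 were set against each other within each library. In U251 RNASeq the ratio of IRF1 to IRF2 reads was 0.278 and 0.243 in control and 1.01 and 0.913 with miR-137. In U251 RIPSeq it was 1.16 and 0.574 in control and 1.27 and 1.22 with miR-137, with one control close to the miR-137 libraries. In U343 RIPSeq it was 3.31 and 3.404 in control and 3.68 and 3.89 with miR-137, and in U343 RNASeq 3.63 and 4.31, then 2.73 and 4.01, in overlapping groups. The U251 RNASeq groups lay far apart, the U343 RIPSeq groups lay close without overlapping, and in U343 RNASeq the library labelled miR-137 replicate 1 of RNASeq had the lowest ratio. The change of neither gene passed the test of a difference between the lines with all libraries.

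STAT3 lies on chromosome 17 (hg18, 37718869 to 37794039, minus strand). In U251 RNASeq it went from 159 and 150 CPM to 245 and 209 CPM, 1.46-fold (log2 0.55 ± 0.13, edgeR adjusted p = 0.00301). STAT3 in U251 RIPSeq was at 110 and 115 CPM in control and 248 and 245 CPM with miR-137 (log2 1.13 ± 0.21, adjusted p = 0.0960; 0.0460 in DESeq2). STAT3 in U343 RNASeq was at 351 and 357 CPM in control and 297 and 352 CPM with miR-137 (log2 -0.13 ± 0.12, adjusted p = 0.492). In U343 RIPSeq the values were 362 and 368, then 342 and 306 CPM (log2 -0.17 ± 0.10, adjusted p = 0.182). The U251 miR-137 libraries lay above their controls in both assays and the U343 miR-137 libraries did not. The difference of the change, U343 less U251, was -0.68 ± 0.19 in RNASeq (adjusted p = 0.0337) and -1.24 ± 0.20 in RIPSeq (adjusted p = 0.0270). In RIPSeq that call was lost with the replicate number as a block (adjusted p = 0.0983).

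STAT6 lies on chromosome 12 (hg18, 55775460 to 55791428, minus strand) and overlaps NAB2 on the other strand by 67 bases. It had 58 to 151 reads per library in U343, 0 to 4 reads in U251 RNASeq, too few for the test, and 6 to 15 in U251 RIPSeq. PABP-bound RNA of U343 showed it going from 1.29 and 1.53 CPM to 3.30 and 3.22 CPM, 2.32-fold (log2 1.22 ± 0.18, edgeR adjusted p = 9.8e-04). U343 total RNA had 1.62 and 1.64 CPM in control and 2.21 and 3.56 CPM with miR-137 (log2 0.82 ± 0.29, adjusted p = 0.124). The U251 RIPSeq values were 0.643 and 0.286 CPM in control and 0.498 and 0.221 CPM with miR-137 (log2 -0.35 ± 0.73, adjusted p = 0.827). NAB2 reads in U343 RIPSeq were 970 and 1052 in control and 1096 and 1180 with miR-137.

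**Figure D4:**
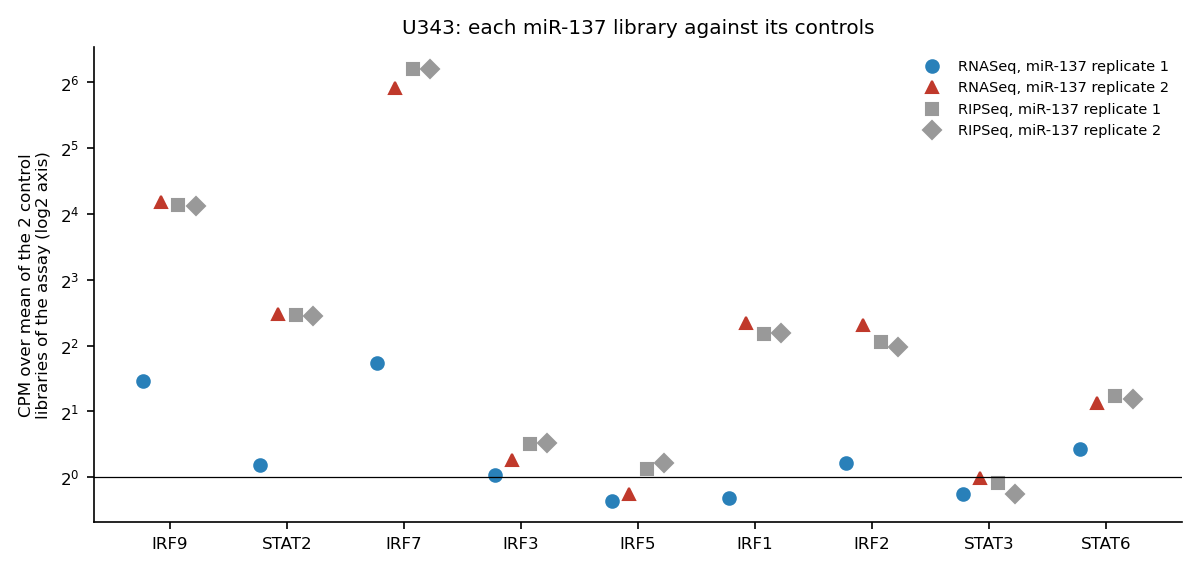
CPM of each gene in each U343 miR-137 library over the mean of the 2 control libraries of its assay, on a log2 axis with a line at no change. RNASeq replicate 2 (red) lies with the RIPSeq libraries (grey) for most genes, while RNASeq replicate 1 (blue) lies near the line for STAT2, IRF3 and IRF2 and above it for IRF7 (log2 1.75) and IRF9 (log2 1.46).

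The U343 RNASeq miR-137 library with the ISGF3 genes near control level thus gave a separate reading of these factors. IRF7 and IRF9 were above both controls in it, STAT2, IRF2, IRF3, STAT3 and STAT6 did not pass the test against the controls (adjusted p-values from 0.0819 to 0.808), and IRF1 and IRF5 were below them. Whether the transfection of this library or its label differs cannot be told apart from these data, so its values are those of the library labelled miR-137 replicate 1. IKBKE, a kinase that phosphorylates IRF3 and IRF7, was likewise high in both miR-137 libraries, at 74.4 and 92.5 CPM against 26.5 and 28.5 CPM in control (log2 1.60 ± 0.14, edgeR adjusted p = 0.00802; 0.155 and 0.176 without control replicate 1 or 2). The sensor DDX58 was at 13.3 CPM in replicate 1, 697 CPM in replicate 2 and 12.7 and 11.3 CPM in control. These single-library fits assume that the lone library varies like the others.

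PABP-bound and total RNA were compared to ask whether any of the genes changed in one pool and not in the other. In edgeR, the change with miR-137 differed between the assays for 0 of 8 genes in U251 and 0 of 9 in U343, beside 0.134% and 0.00649% of all genes tested. At an unadjusted p under 0.05 there were 3 and 2 genes, and DESeq2 called 1 (IRF7 in U251, adjusted p = 0.0165) and 0. The IRF7 difference in U251, RIPSeq less RNASeq, was -3.35 ± 0.84 in edgeR (adjusted p = 0.125), and it was -2.39 (adjusted p = 0.0229) or -3.83 (adjusted p = 1.4e-04) without U251 RIPSeq control replicate 1 or 2. In the control libraries, RIPSeq differed from RNASeq in edgeR for 0 of 7 genes in U251 (4 at an unadjusted p under 0.05, and IRF5, IRF1 and IRF7 in DESeq2), beside 14.0% of all genes. In U343 it differed for IRF9 alone of 9, which was higher in the PABP-bound pool (16.0 and 17.2 CPM against 10.7 and 10.8, log2 0.74 ± 0.10, adjusted p = 8.0e-04), beside 48.6% of all genes. Without U251 RIPSeq control replicate 1 or 2, more of these genes were called in the U251 control comparison and for the change between assays. More of all genes tested were called in the same fits. In U343, the IRF7 difference between the assays was 4.44 on the log2 scale without RNASeq miR-137 replicate 2. It was at least 0.30 without any one library.

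Before any miR-137, the lines differed in all 8 genes that could be compared, as did 84.8% of all genes tested. In control RNASeq, U343 exceeded U251 by 4.11 ± 0.60 on the log2 scale for STAT6 (edgeR adjusted p = 1.8e-04), 3.83 ± 0.27 for IRF7 (1.3e-06), 2.63 ± 0.10 for IRF1 (4.1e-08) and 2.59 ± 0.12 for IRF5 (1.0e-07). The STAT6 value rests on 0 and 3 reads in U251. The differences were smaller for STAT2 (1.42 ± 0.10, 1.6e-06), STAT3 (1.25 ± 0.09, 1.8e-06) and IRF9 (0.45 ± 0.17, 0.0345; 0.0927 in DESeq2). IRF2 was lower in U343 (log2 -1.29 ± 0.11, 4.5e-06). IRF9 thus differed least between the lines in control RNASeq. In the RIPSeq controls IRF9 was at 9.35 and 6.98 CPM in U251 against 16.0 and 17.2 CPM in U343. IRF7 in control RNASeq was at 0.575 and 0.428 CPM in U251 against 6.52 and 7.31 CPM in U343.

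Of the IRF and STAT genes outside the 9, STAT5A was higher with miR-137 in U343 RIPSeq (log2 1.59 ± 0.16, edgeR adjusted p = 1.1e-04), beside 28.5% of all genes tested. STAT5A had 86 and 72 reads in the U343 RNASeq controls and 136 and 203 with miR-137. In U251 RIPSeq it had 95 and 93, then 78 and 92. In U251 RNASeq it had 46 and 38, then 20 and 27 in smaller libraries.

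Ligands upstream of these factors were counted from a list of 14 genes, most with too few reads to test. With miR-137, 3 of 3 tested ligands were higher in U251 RNASeq, 2 of 5 in U251 RIPSeq, 2 of 3 in U343 RNASeq and 6 of 6 in U343 RIPSeq, with none lower. In the same order, 28.7%, 0.944%, 8.31% and 28.5% of all genes tested were higher, and 29.0%, 0.263%, 11.7% and 27.8% lower. In U343 RIPSeq, 1 ligand reached 1 CPM in each control and 6 did in each miR-137 library. In U251 RIPSeq these numbers were 2 and 5. Ligands near 0 in control passed the read filter through their miR-137 reads and could hardly be called lower. The direction of those calls is therefore no support. The median log2 fold changes were 1.13, 2.06, 2.48 and 9.09, against medians of -0.02 to 0.02 over all genes tested. The value of 9.09 became 7.82 with IL28A and IL29, at 0 control reads, set against a floor of 3 counts over the group. These medians cover only the ligands tested and share that limit, so they are no support either. Summed over the list, ligands in U251 RIPSeq held 484 and 318 CPM in control and 289 and 298 CPM with miR-137. In the other experiments the sum was higher with miR-137. IFNB1, which encodes interferon beta, had 1 and 3 reads in the U251 RIPSeq controls and 299 and 276 with miR-137. There were 1 and 0 reads in the U343 RIPSeq controls and 618 and 919 with miR-137. U343 RNASeq held 1 read in each control and in miR-137 replicate 1, and 817 in replicate 2. U251 RNASeq held 1 read in each control and only 5 and 7 with miR-137. IL6, a ligand that signals to STAT3, was higher in U343 RNASeq (log2 4.34 ± 0.81, edgeR adjusted p = 0.0315), as was LIF (2.48 ± 0.39, 0.0217). Both passed without either miR-137 library, IL6 at 4.97 and 3.16 and LIF at 2.89 and 1.90, and neither did without control replicate 1 or 2 (adjusted p-values of 0.242 and 0.250 for IL6 and 0.185 and 0.224 for LIF).

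Receptors and JAK kinases were mixed. Of 17 listed, 5 were higher and 4 lower of 16 tested in U251 RNASeq, 0 called of 16 in U251 RIPSeq (5 at an unadjusted p under 0.05), 2 higher and 2 lower of 17 in U343 RNASeq, and 4 higher and 5 lower of 17 in U343 RIPSeq. Over all genes, the shares were 28.7% higher and 29.0% lower in U251 RNASeq and 28.5% and 27.8% in U343 RIPSeq. In U251 RIPSeq they were 0.944% and 0.263%, and in U343 RNASeq 8.31% and 11.7%. JAK2 was higher in U251 RNASeq (log2 0.99 ± 0.15, edgeR adjusted p = 8.9e-05) and U343 RIPSeq (2.62 ± 0.10, 1.4e-06). IL4R, the receptor chain that signals to STAT6, was higher in the same experiments (3.10 ± 0.25, 3.4e-07 and 1.08 ± 0.13, 3.1e-04). IL13RA1 was lower in U251 RNASeq (-1.37 ± 0.15, 6.3e-06) and U343 RIPSeq (-1.12 ± 0.12, 2.0e-04).

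Sensors, adaptors and kinases upstream of the IRFs were higher for 8 and lower for 2 of 14 genes in U251 RNASeq, higher for 2 in U251 RIPSeq, higher for 1 and lower for 1 in U343 RNASeq, and higher for 11 and lower for 2 in U343 RIPSeq. The RNA sensors DDX58, IFIH1 and TLR3 had the smallest adjusted p-values in U251 RNASeq (DDX58, log2 4.54 ± 0.16) and in U343 RIPSeq (6.12 ± 0.11). TRAF3 was the member lower in U343 RNASeq (-0.97 ± 0.11, edgeR adjusted p = 0.0111; 0.185 and 0.196 without control replicate 1 or 2). Negative regulators were higher for 3 and lower for 5 of 12 genes in U251 RNASeq, higher for 1 of 13 in U251 RIPSeq, higher for 1 and lower for 4 of 14 in U343 RNASeq, and higher for 6 and lower for 5 of 14 in U343 RIPSeq. Beside both lists, 28.7%, 0.944%, 8.31% and 28.5% of all genes tested were higher in the same order, and 29.0%, 0.263%, 11.7% and 27.8% lower. USP18, which dampens signalling at the interferon receptor, was higher in U251 RNASeq (log2 3.11 ± 0.14), U251 RIPSeq (3.29 ± 0.29) and U343 RIPSeq (5.08 ± 0.13). PTPN11, a phosphatase of JAK-STAT signalling, was lower in U251 RNASeq (-1.85 ± 0.15, adjusted p = 2.7e-07).

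Targets of the factors were counted from lists of 17 genes induced through ISGF3 and 11 classed as STAT3 targets. ISGF3 genes were higher for 17 of 17 in U251 RNASeq, 16 in U251 RIPSeq, 0 in U343 RNASeq (6 at an unadjusted p under 0.05) and 16 in U343 RIPSeq, with none lower and median log2 fold changes of 5.83, 6.31, 4.45 and 6.75. Their summed level was 409 and 449 CPM in the U251 RNASeq controls and 15980 and 16087 CPM with miR-137. In U343 RIPSeq it was 239 and 228 CPM, then 15437 and 15456 CPM. In each U251 control 13 of the 17 genes reached 1 CPM, and 17 did in each U251 miR-137 library. Genes of this list near 0 in control passed the read filter through their miR-137 reads and could hardly be called lower. The direction of those calls is therefore no support, and the U251 medians include those genes. STAT3 targets were higher for 8 and lower for 0 of 11 in U251 RNASeq, 0 called in U251 RIPSeq (5 at an unadjusted p under 0.05), 3 higher in U343 RNASeq, and 6 higher and 1 lower in U343 RIPSeq. Shares of all genes tested in the same order were 28.7%, 0.944%, 8.31% and 28.5% higher and 29.0%, 0.263%, 11.7% and 27.8% lower. JUNB was first by adjusted p in U251 RNASeq (log2 1.67 ± 0.14, edgeR adjusted p = 5.8e-07) and in U343 RIPSeq (1.67 ± 0.10, 9.9e-06), where STAT3 itself passed the test only in the former. Several of the 11 answer to other factors as well.

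The list counts of U343 RNASeq and U251 RIPSeq moved with single libraries. Calls over all genes moved in the same fits, so the list counts of those fits are not given. The median log2 fold change of ISGF3 genes was 5.39 without U343 RNASeq miR-137 replicate 1. Without replicate 2 it was -0.32. By that median, the ISGF3 genes lay slightly below the controls in the library labelled miR-137 replicate 1. Without either control of U343 RNASeq each list count was 0. In U251 RIPSeq, ISGF3 genes were higher for 17 of 17 without any one library. Without control replicate 1 or 2 there, calls rose in the other lists as they did over all genes. Among the called receptors and negative regulators, most were lower without control replicate 1 and most were higher without control replicate 2.

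Likeness was measured over the 16 libraries, as Pearson's r of log2 CPM centred on each experiment's mean among 12191 genes, and is a description because all points share libraries and the same transfection. STAT2 was most like IFIT2 (r = 0.997), an antiviral translation inhibitor, and SP110 (0.997). IRF9 was most like TRIM21 (0.995) and LGALS9 (0.992), IRF1 like DHX58 (0.993) and PML (0.991), and IRF2 like CD274 (0.993) and FAM46A (0.989). IRF7 was most like PPAPDC2 (0.968) and MAB21L2 (0.962), and STAT3 like PALM2 (0.961) and TRAPPC2P1 (0.958). Among the genes themselves, IRF9 and STAT2 had r = 0.974, IRF1 and STAT2 0.959, IRF7 and IRF9 0.641, STAT3 and IRF7 -0.09, and IRF5 between -0.33 and 0.21 with each of the others.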

How the data were processed

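The deposited values are raw read counts per gene, as the authors made them with RMAP on hg18 and 1 merged transcript per RefSeq gene, without normalization. Groups came from the labels. The members and gene lists were chosen with earlier results of these data known. Counts were fitted in edgeR 4.0.16 (R 4.3.3; TMM, filterByExpr, quasi-likelihood F test, Benjamini-Hochberg over all genes tested, threshold 0.05) within each experiment, and interactions over 8 libraries. CPM values use TMM-scaled library totals. The study's rule was run as 4 two-sided Fisher's exact tests per gene, with rises counted by mirroring it. Alternatives were DESeq2 1.42.0 (own size factors), a mean of at least 50 reads or only 1 read in some library as the filter, upper-quartile scaling, a replicate block, each library left out (for the gene lists, chosen after seeing the data), and for the rule an odds ratio over 1.5 with p under 0.05 and TMM-scaled totals. The rule for named genes was the 9 members, other IRF and STAT genes over 1 CPM in a group (certain of these are not reported here), up to 3 genes per list and experiment by smallest adjusted p, and the 2 genes most like each called member. IL4R in U343 RIPSeq and DDX58 and IFNB1 in U343 RNASeq fall outside this rule and were named after their values were seen. 1 duplicated symbol was dropped in U251. The tests were run on simulated counts first. Super-transcript lengths were not used, so levels are not compared between genes.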

Additional observations from a re-analysis of the deposited data

Results flagged for a closer look

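3 differences between the cell lines passed the test of the difference itself (edgeR, interaction of transfection with cell line). The IRF7 change was larger in U343 than in U251 by 7.54 ± 0.66 on the log2 scale in RIPSeq (adjusted p = 0.00980). The STAT3 change was lower in U343 than in U251 by -0.68 ± 0.19 in RNASeq (adjusted p = 0.0337) and by -1.24 ± 0.20 in RIPSeq (adjusted p = 0.0270). Leaving out 1 library gave adjusted p-values of up to 0.101 for IRF7, 0.125 for STAT3 in RNASeq and 0.242 for STAT3 in RIPSeq, with the sign kept in each of these fits. The lines also differ in cDNA kit, which cannot be told apart from the line. Groups of 2 libraries were too small for a test of single outlying samples.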

How the results depend on the processing

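Of the counts of members called, DESeq2 moved those for miR-137 in U251 RIPSeq to 4 and in U343 RNASeq to 2, the assay interaction in U251 to 1 and RIPSeq against RNASeq in U251 to 3, and gave 7 in place of 8 between the lines (IRF9 lost). Without the low-count filter, U251 RIPSeq gave 1, and IRF5 in U251 RNASeq turned to -0.028 (log2). The study's rule at an odds ratio over 1.5 and p under 0.05 gave 6 in U251 RNASeq. With the replicate number as a block, the line interaction in RIPSeq gave 1 (IRF7) and RIPSeq against RNASeq in U251 gave 2. Other counts under the block were 6, 3, 0 and 8 for miR-137 in U251 RNASeq, U251 RIPSeq, U343 RNASeq and U343 RIPSeq, the last with IRF5 added. Deviations of same-numbered libraries correlated at 0.03 to 0.28 over genes with 2 pairs each, so the numbers were not taken as pairs. Leaving out 1 library, the counts ranged from 1 to 7 for miR-137 in U251 RIPSeq and 0 to 6 in U343 RNASeq, stayed at 6 in U251 RNASeq and 7 in U343 RIPSeq, and ranged from 0 to 6 (assay, U251), 0 to 7 (assay, U343), 0 to 5 (line, RNASeq) and 0 to 7 (line, RIPSeq) for the interactions. They ranged from 0 to 7 for RIPSeq against RNASeq in U251, 1 to 2 in U343, and 7 to 8 between the lines. Calls by the study's rule moved without single libraries in U251 RNASeq, U251 RIPSeq and U343 RNASeq, and in U251 RIPSeq not all were toward higher. Log2 fold changes that changed sign without 1 library were IRF5 in U251 RNASeq (-0.074 to 0.129), STAT6 in U251 RIPSeq (-0.99 to 0.31), IRF1 in U343 RNASeq (-0.31 to 2.34) and the IRF7 line interaction in RNASeq (-0.29 to 3.87). Where the counts of members moved, calls over all genes moved as well, so these ranges are not read as results about the members. Beside those given in the report, the cause of these changes was not tested. Upper-quartile scaling moved the median of all genes in U251 RNASeq from 0.02 to 0.16 (log2) and left the count of 6 higher. Depth limited STAT6 and IRF7 in U251, with 0 to 15 and 7 to 58 reads per library. For IRF7 in U251, the filter of 50 reads on average left no value.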
